A study of Homo sapiens with 16 samples.

Results

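The genes described here are the ephrins, the Eph receptors that bind them, the semaphorins and the plexins that serve as semaphorin receptors. They are all RefSeq protein-coding genes on chromosomes 1 to 22 and X whose symbol starts with EPHA, EPHB, EFNA, EFNB, SEMA or PLXN, which gives 52 of 19974 genes. Among them are 9 EphA and 5 EphB receptors, 9 ephrin entries, 20 semaphorins and 9 plexins. One ephrin entry is the read-through locus EFNA4-EFNA3, whose window overlaps those of EFNA4 and EFNA3, so these 3 entries share peaks.

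Open chromatin was mapped by ATAC-seq, which uses the Tn5 transposase to cut and tag accessible DNA, in brain organoids enriched for dorsal telencephalon, the forerunner of the cerebral cortex. The organoids derived from the established human embryonic stem cell line H9, here with wild-type genotype apart from 2 reporters that every group carried: P2A-EGFP at the stop codon of one SOX2 allele, and dTomato under the human Synapsin1 promoter at the AAVS1 locus. EGFP-positive cells (progenitors) and dTomato-positive cells (neurons) were sorted on days 40, 60, 90 and 120, with 2 libraries for each population and day and 16 in all. The sort rests on 1 reporter gene per population, so each population may hold several cell types. No label states that the paired libraries stem from separate cultures or sorts. The p-values thus measure no more than the spread between libraries, and that spread may be technical.

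Each library came with its own list of broad peaks, and the lists hold no read numbers, so sequencing depth is unknown. The lists used had 67977 to 138432 peaks and covered 36.9 Mb (progenitors, day 120, replicate 2) to 104 Mb (neurons, day 40, replicate 1). Peak coverage of a gene was therefore taken as the bases under peaks within the gene and 20 kb on either side, and is given below in kb per 100 Mb of the library's own peaks. It is a measure of how much of a locus was called open, not of transcription. Of the 52 windows, 31 also held another protein-coding gene, whose peaks are counted too. In sorted bulk nuclei, fewer cells of a type and a smaller extent of open chromatin per cell cannot be told apart. Of 7 radial glia markers, 5 had more coverage in progenitors and 0 less by limma's test, with a summed coverage of 71.5 to 87.2 kb per 100 Mb in progenitor libraries and 43.1 to 64.7 in neuron libraries. Of 8 neuronal markers, 0 had more coverage in progenitors and 3 had less, and their sums were 88.9 to 131 kb per 100 Mb in progenitor libraries and 118 to 169 in neuron libraries.

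Ephrins and Eph receptors signal at contacts between cells. The A ephrins are held to the membrane by a lipid anchor and mainly bind EphA receptors, while the B ephrins cross the membrane and mainly bind EphB receptors, and signals can run into both of the touching cells. Semaphorins are secreted (class 3), membrane-spanning (classes 4 to 6) or lipid-anchored (SEMA7A), and act on plexins, with neuropilins as co-receptors for most class 3 ligands. In the developing cortex both systems are known for steering axons, for guiding migrating neurons and for acting on neural progenitors.

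Promoters of 25 of these genes were open in every library of both populations. RefSeq promoter windows of GRCh38.p14, 250 bases before to 50 bases after a transcript start, were on hand as 74 windows for 47 of the 52 genes. EFNA4 and the read-through EFNA4-EFNA3 have the same window, which is counted for both. Some genes, such as EPHB2 and SEMA3B, have windows that overlap each other and are counted apart. In 34 of the windows all 16 libraries had a peak (45.9%, against 49.6% of 22132 windows of all protein-coding genes), and 10 windows had a peak in no library (13.5%, against 24.7%). At least 1 promoter of each of the 25 genes had a peak in every library, whereas EFNA2, EPHB6, SEMA3G and SEMA4D had none in any. Those 4 genes had a single window each, which for EFNA2 lies downstream of the gene's start, so other starts were not seen. Merged peak regions found in all 16 libraries numbered 3 for EFNA2, 1 for EPHB6, 3 for SEMA3G and 2 for SEMA4D, within the gene or 20 kb of it. Windows whose number of libraries with a peak differed by 4 or more between the populations were 6 of 74 (8.11%, against 3.79% of all windows). They belonged to EPHA8 (0 progenitor and 5 neuron libraries), SEMA4A (2 progenitor and 7 neuron libraries for one start, 2 progenitor and 8 neuron libraries for an overlapping one), and alternative starts of EPHA5 (7 progenitor, 2 neuron), SEMA3B (4 progenitor, 0 neuron) and SEMA4B (6 progenitor, 2 neuron). These counts of promoters carry no test.

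The promoters of 5 genes are printed 5′ to 3′ on the strand of the gene, from RefSeq (GRCh38.p14). EPHA8 and SEMA4A are shown because a peak was found mostly in neurons. EFNA5, EPHA2 and EPHB1 are shown because their promoters had a peak in all 16 libraries while coverage of the whole window, promoter included, differed between populations. SEMA4A and the reason for showing it were picked after the promoter values had been seen. Capitals mark the GC box letters GGGCGG or, on the other strand, CCGCCC.
EPHA8 promoter, chr1:22563239-22563538, plus strand: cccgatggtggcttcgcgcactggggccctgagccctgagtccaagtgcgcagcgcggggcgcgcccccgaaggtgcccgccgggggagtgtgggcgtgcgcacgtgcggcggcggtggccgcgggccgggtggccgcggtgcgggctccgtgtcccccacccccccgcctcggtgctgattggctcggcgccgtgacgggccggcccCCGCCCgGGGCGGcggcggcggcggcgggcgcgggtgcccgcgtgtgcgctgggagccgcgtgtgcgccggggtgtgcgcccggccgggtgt
SEMA4A promoter, chr1:156149779-156150078, plus strand: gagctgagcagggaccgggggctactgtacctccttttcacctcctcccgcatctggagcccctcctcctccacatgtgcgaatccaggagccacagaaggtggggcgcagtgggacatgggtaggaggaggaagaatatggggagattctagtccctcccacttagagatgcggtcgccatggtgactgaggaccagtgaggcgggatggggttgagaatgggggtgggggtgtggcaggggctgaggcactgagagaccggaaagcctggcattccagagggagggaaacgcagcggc
EFNA5 promoter, chr5:107670888-107671187, minus strand: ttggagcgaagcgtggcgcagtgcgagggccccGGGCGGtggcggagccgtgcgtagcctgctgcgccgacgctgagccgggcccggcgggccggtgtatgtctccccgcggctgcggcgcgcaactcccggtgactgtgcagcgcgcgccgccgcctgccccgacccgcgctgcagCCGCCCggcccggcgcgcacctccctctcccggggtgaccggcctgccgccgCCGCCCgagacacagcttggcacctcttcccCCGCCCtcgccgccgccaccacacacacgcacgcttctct
EPHA2 promoter, chr1:16156020-16156319, minus strand: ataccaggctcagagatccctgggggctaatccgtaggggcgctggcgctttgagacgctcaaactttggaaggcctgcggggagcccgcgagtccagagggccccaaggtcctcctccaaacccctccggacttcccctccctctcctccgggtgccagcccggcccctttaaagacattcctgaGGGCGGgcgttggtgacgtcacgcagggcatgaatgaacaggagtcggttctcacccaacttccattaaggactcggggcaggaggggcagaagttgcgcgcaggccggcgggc
EPHB1 promoter, chr3:134795010-134795309, plus strand: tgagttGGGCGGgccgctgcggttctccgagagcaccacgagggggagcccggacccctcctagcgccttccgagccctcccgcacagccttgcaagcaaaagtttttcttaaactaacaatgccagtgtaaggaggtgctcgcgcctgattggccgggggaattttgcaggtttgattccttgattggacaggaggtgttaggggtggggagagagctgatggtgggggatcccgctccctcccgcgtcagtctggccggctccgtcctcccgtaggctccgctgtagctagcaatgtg

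The EPHA8 window is the richest of the 5 in G and C, at 82.7%, and holds 51 CpG dinucleotides and 2 GC boxes. EFNA5 has 78.0% G and C and 4 GC boxes, EPHA2 has 64.3% and 1 box, and EPHB1 has 61.3% and 1 box. The SEMA4A window has 62.0% G and C, 10 CpG dinucleotides and 0 GC boxes. GGGCGG, searched on both strands, occurred in 55 of the 74 windows (74.3%) and in 56.3% of all protein-coding promoter windows of the same length. The median window of all genes had 62.3% G and C and 21 CpG dinucleotides. A match of these letters describes the sequence and is not evidence of a bound factor.

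**Figure D1:**
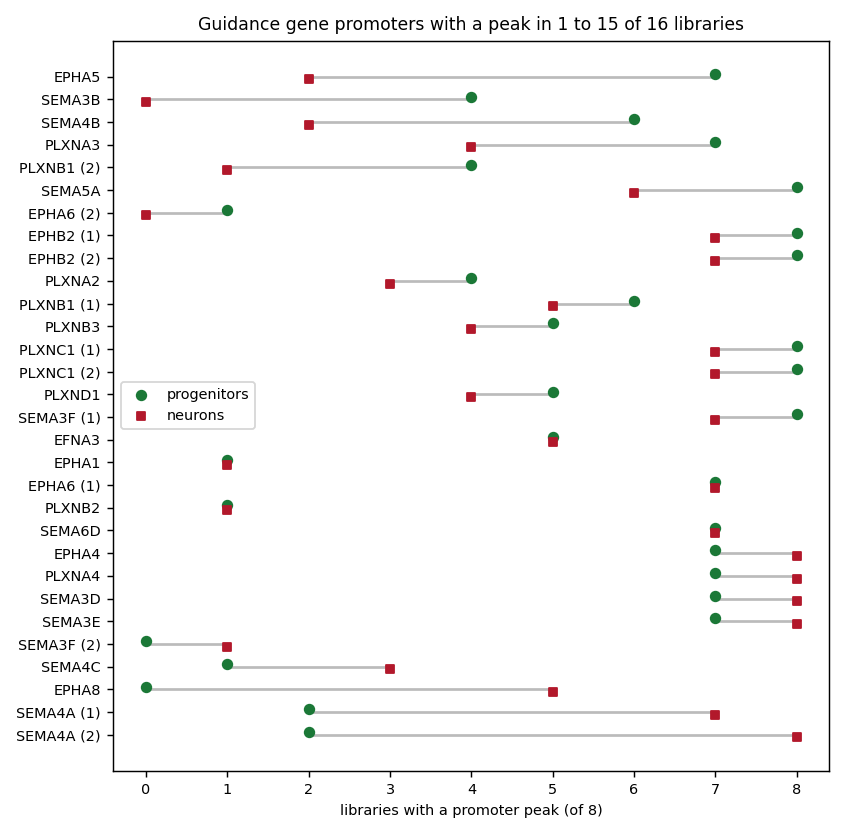
Number of libraries (of 8 per population) with a peak in each RefSeq promoter window of the guidance genes that had one in some but not all of the 16 libraries, 30 of 74 windows. Circles are progenitors, squares neurons, and numbers in brackets tell the windows of a gene apart. EPHA8, with 0 progenitor and 5 neuron libraries, and SEMA4A, with 2 progenitor and 8 neuron libraries, stand at the bottom of the plot, and EPHA5, with 7 progenitor and 2 neuron libraries, at its top.

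Between the populations, the guidance genes split in both directions. Progenitors had more coverage than neurons at 7 of the 52 genes (EPHA2, SEMA3D, PLXNB3, SEMA5A, EFNA5, EPHB2 and SEMA5B) and less at 9 (EPHA8, EPHA10, SEMA4D, EPHA6, EPHA3, SEMA3F, SEMA3E, EPHB1 and PLXNA4), and 36 did not pass. By receptor and ligand class, Eph receptors had 2 higher and 5 lower of 14, ephrins 1 higher of 9, semaphorins 3 higher and 3 lower of 20, and plexins 1 higher and 1 lower of 9. The test was limma on log2(covered bases + 500) relative to the library's total, averaged over the 4 days and adjusted by Benjamini and Hochberg over 18755 genes, with a threshold of 0.05. All 52 genes passed the filter on low coverage.

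Over all genes tested, 9.9% were higher and 11.1% lower in progenitors, against 13.5% and 17.3% of the guidance genes, and the median log2 difference was −0.05 for all genes and −0.00 for the guidance genes. The called guidance genes are long: their median gene length was 233 kb, against 24.8 kb for the 36 others and 26.6 kb for all genes tested. The length of called genes outside the families was not taken, so whether this is particular to guidance genes cannot be told. The libraries of the populations overlapped for each of the 16 called guidance genes, and how often they did for called genes at large was not counted. Without scaling to the library total, EPHA2, PLXNB3 and SEMA3D were called higher and 0 guidance genes lower (5.77% and 0 of them, against 5.47% and 3.48% of all genes). The 13 other differences kept their sign there, among them EPHA8 at −0.94 (adjusted p = 0.107), EPHA10 at −0.50 (adjusted p = 0.0964), SEMA4D at −0.50 (adjusted p = 0.215) and SEMA5A at 0.58 (adjusted p = 0.0634). With lists trimmed to equal length, 13 were higher and 6 lower of 51 tested (25.5% and 11.8%, against 11.4% and 16.6% of all genes), and EPHA3 changed sign to 0.25 (adjusted p = 0.0846).

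**Figure D2:**
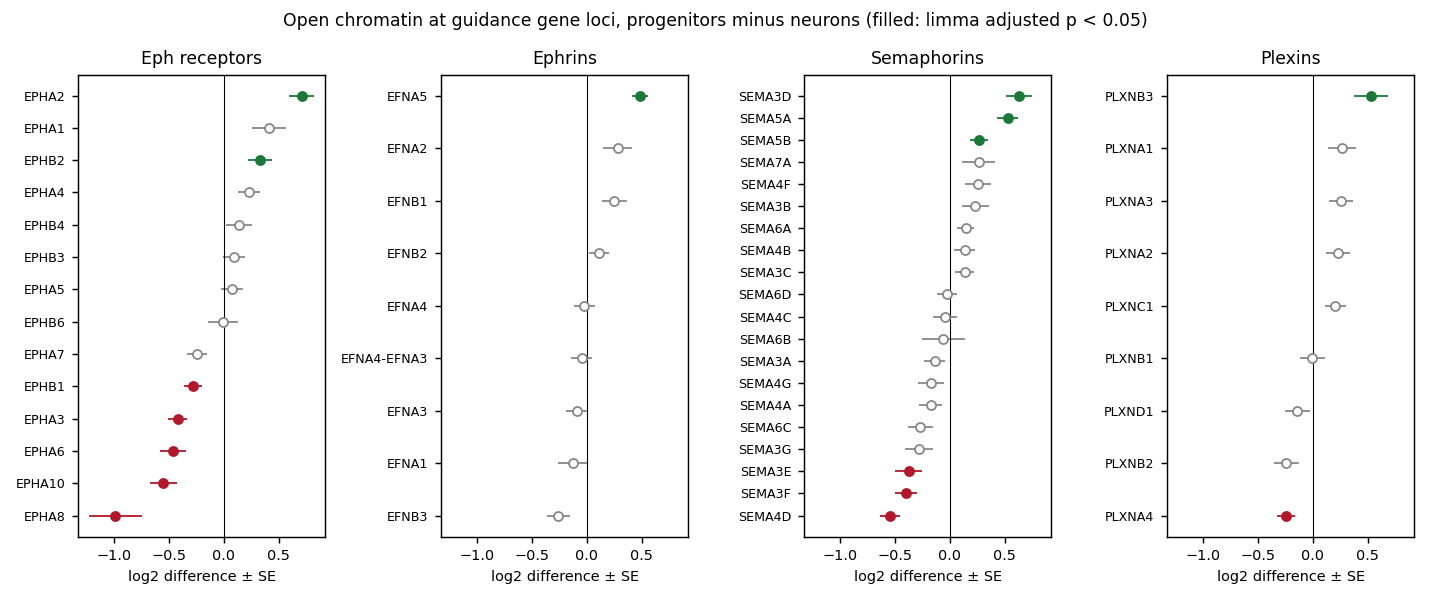
Log2 difference in peak coverage, progenitors minus neurons, with its standard error, for the 52 guidance genes grouped by class. Filled points are genes past the adjusted threshold: 7 lie right of 0, led by EPHA2 at 0.71, and 9 left of 0, led by EPHA8 at −0.99.

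Among the Eph receptors, EPHA8 had the largest difference. This EphA receptor had 0, 1.29 and 2.26 kb per 100 Mb (lowest, median and highest) in progenitor libraries, and 0.294, 2.86 and 8.41 in neuron libraries. In 5 neuron libraries coverage lay above every progenitor library. The log2 difference was −0.99 ± 0.24 (SE, adjusted p = 0.00383), with −2.37 on day 40, −0.41 on day 60, −1.06 on day 90 and −0.13 on day 120. Day 40 replicate 1 and day 120 replicate 2 of the progenitors had no peak in the window, and with the gene alone, without its flanks, the difference was −0.55 (adjusted p = 0.0599).

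EPHA10, which lacks kinase activity, had 1.38, 3.04 and 4.05 kb per 100 Mb in progenitors, against 3.82, 4.36 and 5.79 in neurons. Here too 5 neuron libraries lay above every progenitor library, and the difference was negative on all 4 days, at −0.32, −0.47, −0.47 and −0.95 (mean −0.55 ± 0.12 SE, adjusted p = 0.00199). EPHA6, at 947 kb the longest of the genes called between the populations, had 11.8, 15.02 and 20.7 kb per 100 Mb in progenitors and 12.1, 22.6 and 27.9 in neurons. Neuron day 40 replicate 2, at 12.1, lay with the progenitors, and the difference was −0.47 ± 0.12 (adjusted p = 0.00608). Without the 2 shortest lists it was −0.41 (adjusted p = 0.0678), and with lists of equal length −0.19 (adjusted p = 0.365). EPHA3, a receptor for A ephrins, had 14.7, 17.9 and 24.6 in progenitors and 21.8, 23.5 and 31.5 in neurons. Its difference was −0.42 ± 0.09 (adjusted p = 0.000833) over the stages but −0.05 on day 40.

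EPHA2 stood on the other side. This receptor, known from epithelia and the early embryo, had 6.77, 8.0 and 10.6 kb per 100 Mb in progenitors and 2.46, 6.06 and 7.15 in neurons, with 6 progenitor libraries above every neuron library. Its log2 difference of 0.71 ± 0.11 (adjusted p = 5.8e-05) was positive on all 4 days, from 0.14 on day 90 to 1.19 on day 120. When counted by number of peaks in place of covered bases the difference was 0.25 (adjusted p = 0.145). EPHB2, an EphB receptor known from commissural axons and synapses in mice, had 13.1, 21.9 and 27.5 in progenitors and 9.81, 16.95 and 20.8 in neurons. Its call (0.33 ± 0.11, adjusted p = 0.0324) held without replicate 2 of progenitor day 60 or 120 or of neuron day 40 or 90, or without neuron day 120 replicate 1. It was lost without any one of the 11 other libraries, with an adjusted p of up to 0.119 without neuron day 120 replicate 2, and by number of peaks the difference was 0.05 (adjusted p = 0.818). EPHB1 was lower in progenitors over the stages (−0.28 ± 0.08, adjusted p = 0.0118), but its daily differences were −0.88, −0.53, 0.00 and 0.27 on days 40, 60, 90 and 120. With lists of equal length it was −0.08 (adjusted p = 0.514), and the gene is taken up with the stages below.

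The 7 Eph receptors not called between the populations ranged from EPHA7 to EPHA1. EPHA7, known for shaping cortical axon maps in mice, had a difference of −0.25 (adjusted p = 0.0507). EPHA1 had 0.41 (adjusted p = 0.062), and EPHA4, which binds ephrins of both classes, had 0.23 (adjusted p = 0.0939). EPHA5, EPHB3, EPHB4 and the kinase-inactive EPHB6 lay between −0.00 and 0.14.

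EFNA5, a membrane-anchored ligand that repels retinal and thalamic axons in mice, was the called ephrin. Its coverage was 31.8, 36.0 and 42.0 kb per 100 Mb in progenitors, against 21.5, 24.02 and 34.6 in neurons. There were 5 progenitor libraries above every neuron library, and the 2 neuron libraries of day 40, at 34.6 and 32.5, lay within the progenitor range. The log2 difference of 0.49 ± 0.07 (adjusted p = 2.8e-05) was positive on each day, at 0.32, 0.51, 0.56 and 0.56. Its call was lost without scaling (0.54, adjusted p = 0.0952) and by number of peaks (0.16, adjusted p = 0.157).

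The other ephrins did not pass. EFNA2 had a difference of 0.28 (adjusted p = 0.139), EFNB1 0.25 (adjusted p = 0.126) and EFNB3 −0.26 (adjusted p = 0.088), while EFNA1, EFNA3, EFNA4, the read-through EFNA4-EFNA3 and EFNB2 lay between −0.13 and 0.11. EFNB1 had 5 progenitor libraries above every neuron library, at 4.14, 7.41 and 8.42 kb per 100 Mb in progenitors and 4.26, 5.56 and 6.31 in neurons. The windows of EFNA4 and EFNA3, neighbours on chromosome 1, had the densest coverage, with 17.6% and 15.2% of them under peaks. The median was 6.43% for the 52 genes and 4.26% for all genes tested. These windows are mostly flank and hold 4 and 3 other protein-coding genes, guidance genes among them.

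**Figure D3:**
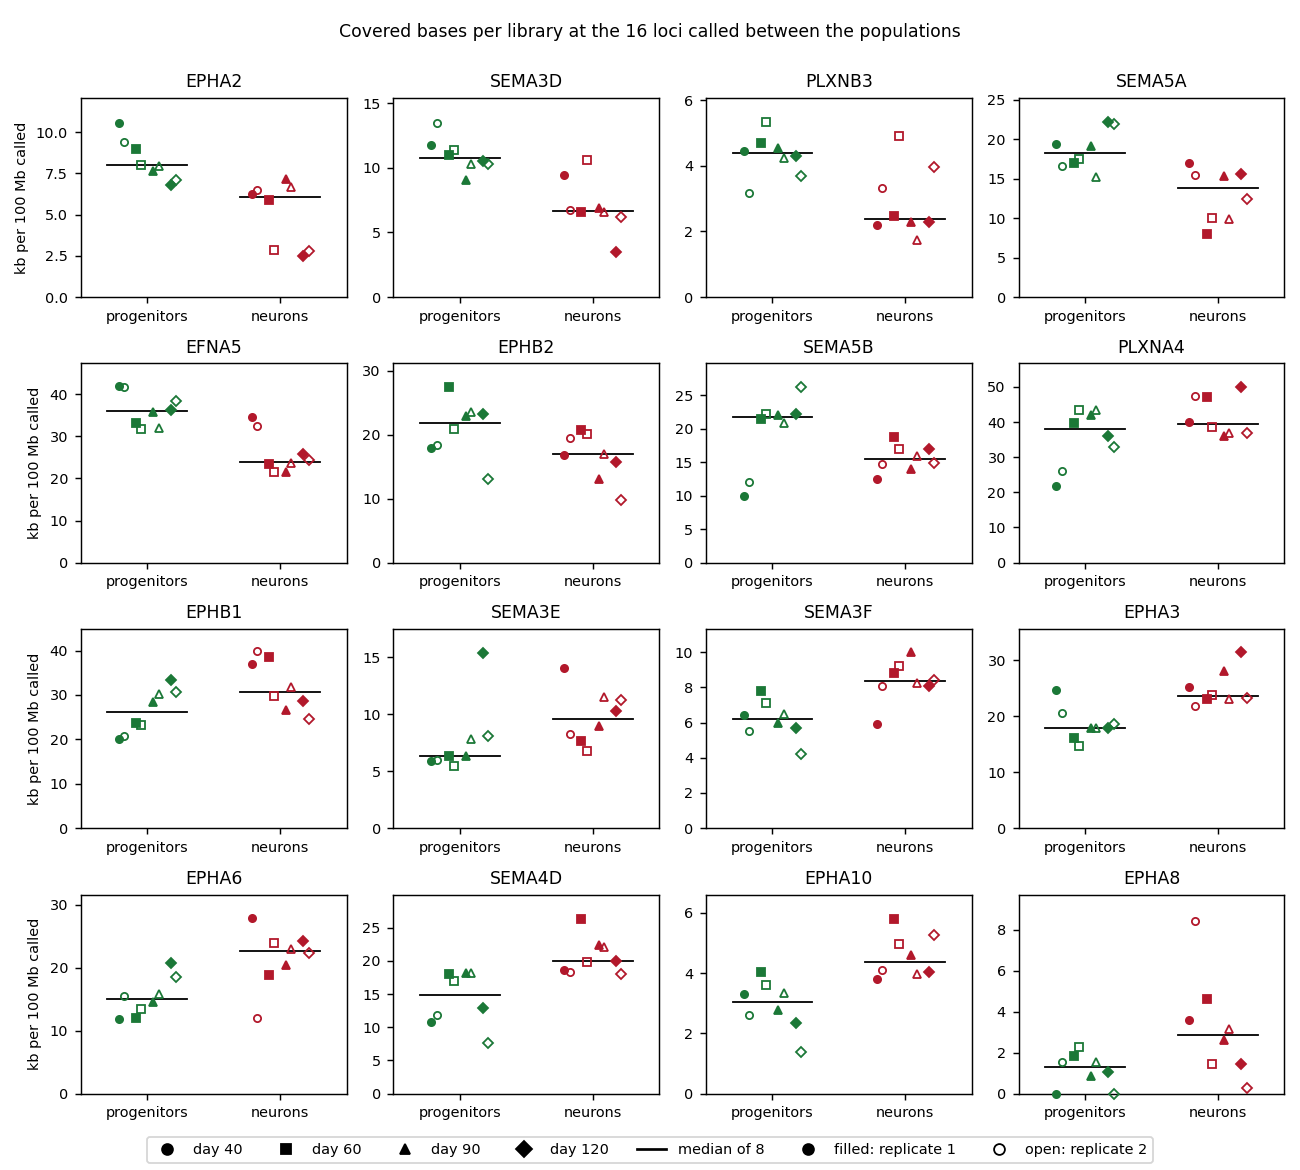
Peak coverage of each of the 16 called genes in every library, in kb per 100 Mb of the library's peaks, with progenitor libraries left of neuron libraries, marker shapes for days and a line at the median of 8. EFNA5 lies at 31.8 to 42.0 in progenitors and 21.5 to 34.6 in neurons, SEMA4D at 7.67 to 18.2 in progenitors and 18.1 to 26.3 in neurons, and the ranges of the populations overlap for each gene.

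The semaphorins held calls in both directions within class 3, the secreted ligands. SEMA3D had 9.07, 10.8 and 13.5 kb per 100 Mb in progenitors, against 3.50, 6.67 and 10.6 in neurons. Of the 8 neuron libraries, 6 lay below every progenitor library, and the log2 difference of 0.63 ± 0.12 (adjusted p = 0.000345) was positive on every day, at 0.64, 0.37, 0.47 and 1.05. It stayed past the threshold under each of the 11 other settings and without any 1 library. SEMA3F, a neuropilin-2 ligand that repels axons, ran the other way, with 4.24, 6.19 and 7.78 in progenitors and 8.36 as the median of neurons, whose lowest and highest libraries had 5.95 and 10.01. Again 7 of 8 neuron libraries lay above every progenitor library (−0.40 ± 0.10, adjusted p = 0.00565), and 3 other protein-coding genes lie in its window. By number of peaks the difference was −0.21 (adjusted p = 0.191), and with lists of equal length −0.30 (adjusted p = 0.217).

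SEMA3E, which binds PLXND1 without a neuropilin, had 5.48, 6.34 and 15.4 kb per 100 Mb in progenitors and 6.72, 9.60 and 14.1 in neurons. Progenitor day 120 replicate 1 was the highest of all libraries, and the daily differences were −0.79, −0.28, −0.52 and 0.09. The call (−0.38 ± 0.12, adjusted p = 0.0265) was lost without any one of 7 libraries: progenitor day 60 replicate 2, day 90 replicate 1 and day 120 replicate 2, and neuron day 40 replicate 1, day 60 replicate 1, day 90 replicate 2 and day 120 replicate 2. The adjusted p then lay between 0.0517 and 0.0946. With lists of equal length the SEMA3E difference was −0.02 (adjusted p = 0.945), and without the 2 shortest lists −0.30 (adjusted p = 0.0836).

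SEMA4D, a membrane-spanning ligand of PLXNB1, was lower in progenitors on each day. Its coverage was 7.67, 14.9 and 18.2 kb per 100 Mb in progenitors and 18.1, 19.9 and 26.3 in neurons, so that 7 of 8 neuron libraries exceeded every progenitor library. The daily differences were −0.66, −0.39, −0.29 and −0.85, with a mean of −0.55 ± 0.09 (SE, adjusted p = 9.7e-05). No library had a peak at its single RefSeq promoter window, though 2 merged regions within the gene or 20 kb of it had a peak in all 16.

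The paired class 5 ligands, SEMA5A and SEMA5B, membrane proteins with thrombospondin repeats, were both higher in progenitors. SEMA5A had 15.2, 18.3 and 22.2 kb per 100 Mb in progenitors and 8.02, 13.8 and 16.9 in neurons (0.53 ± 0.10, adjusted p = 0.000329). In 6 progenitor libraries it exceeded every neuron library. SEMA5B had 9.97, 21.7 and 26.2 in progenitors and 12.4, 15.4 and 18.7 in neurons, and again 6 progenitor libraries lay above every neuron library, while the progenitor libraries of day 40 were the lowest of all 16. The SEMA5B call (0.27 ± 0.08, adjusted p = 0.0247) was lost without any one of 6 libraries: progenitor day 40 replicate 2, day 60 replicate 2 and day 90 replicate 1, and neuron day 40 replicate 1, day 90 replicate 1 and day 120 replicate 2. The adjusted p then lay between 0.0507 and 0.0804. The difference was 0.12 (adjusted p = 0.41) by number of peaks and 0.20 (adjusted p = 0.0993) with lists of equal length.

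The 14 semaphorins that did not pass had differences between −0.28 (SEMA3G, adjusted p = 0.126) and 0.26 (SEMA7A, adjusted p = 0.222). SEMA6D, a ligand of PLXNA1, had −0.02 (adjusted p = 0.889) despite high coverage, at 18.8, 24.4 and 32.8 kb per 100 Mb in progenitors and 17.4, 28.6 and 31.2 in neurons. SEMA4A, with the promoter shown above, had −0.17 (adjusted p = 0.263) for its whole window.

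Of the plexins, PLXNB3, a receptor for SEMA5A, was higher in progenitors, and PLXNA4, which works with neuropilins for SEMA3A and directly for SEMA6A, was lower. PLXNB3 had 3.16, 4.38 and 5.33 kb per 100 Mb in progenitors and 1.73, 2.38 and 4.90 in neurons (0.53 ± 0.15, adjusted p = 0.0134). Of the neuron libraries, 3 lay within the progenitor range: day 60 replicate 2 at 4.90, day 120 replicate 2 at 3.96 and day 40 replicate 2 at 3.31. The window holds 4 other protein-coding genes, and for the PLXNB3 gene alone the difference was 0.50 (adjusted p = 0.123). Leaving out neuron day 120 replicate 1 gave 0.45 (adjusted p = 0.0514), and lists of equal length gave 0.14 (adjusted p = 0.24).

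PLXNA4 had 21.7, 37.9 and 43.5 kb per 100 Mb in progenitors and 36.0, 39.3 and 50.1 in neurons. The 2 progenitor libraries of day 40, at 21.7 and 26.0, were the lowest of all, and the daily differences were −0.85, −0.04, 0.22 and −0.31. The mean of −0.24 ± 0.08 (adjusted p = 0.0358) held without progenitor day 40 replicate 2, day 60 replicate 2 or day 120 replicate 1, or neuron day 40 replicate 1, day 60 replicate 2 or day 120 replicate 2. Without any one of the 10 other libraries it was lost, with an adjusted p of up to 0.128 without neuron day 120 replicate 1, and it was 0.043 (adjusted p = 0.884) with lists of equal length and −0.06 (adjusted p = 0.71) by number of peaks. The 7 other plexins lay between −0.24 (PLXNB2, adjusted p = 0.14) and 0.27 (PLXNA1, adjusted p = 0.148).

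Within the loci, single stretches of open chromatin were found in the libraries of one population and not of the other. All peaks were merged into regions, of which 1586 overlapped the windows of the guidance genes. Of these, 134 were seen in all 16 libraries and 467 in 1 library. By Fisher's exact test on 8 progenitor and 8 neuron libraries (two-sided, adjusted over 182575 regions), 30 of 935 tested regions favoured progenitors, that is, had a peak in more progenitor libraries, and 21 favoured neurons. That is 3.21% and 2.25%, against 3.06% and 1.27% of all regions tested.

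Of the 935 tested regions, 776 overlapped a guidance gene itself and not only its flanks. Among the 51 called regions, 27 of 30 that favoured progenitors and 18 of 21 that favoured neurons did so, not far from that share. Of the 51, 0 overlapped a RefSeq promoter window of a guidance gene. Of the 134 regions with a peak in all libraries, 65 overlapped such a window. Only regions seen in 2 to 14 libraries were tested, so those 134 could not be called, and the filter partly sets this contrast. How many tested regions overlapped a promoter window was not counted. Called regions were spread over 26 genes, and 10 genes held regions of both directions: EFNA5, EFNB2, EPHA2, EPHA3, EPHA7, PLXNA4, SEMA3A, SEMA3E, SEMA5A and SEMA6D. Among these 10, the number of tested regions ran from 11 for EPHA2 to 61 for PLXNA4. How many of all protein-coding genes held called regions, of one or of both directions, was not counted. SEMA3A had 4 regions found more often in progenitors and 2 in neurons, and PLXNA4 had 3 and 3, and the whole SEMA3A window was not called (−0.14 ± 0.09, adjusted p = 0.305).

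**Figure D4:**
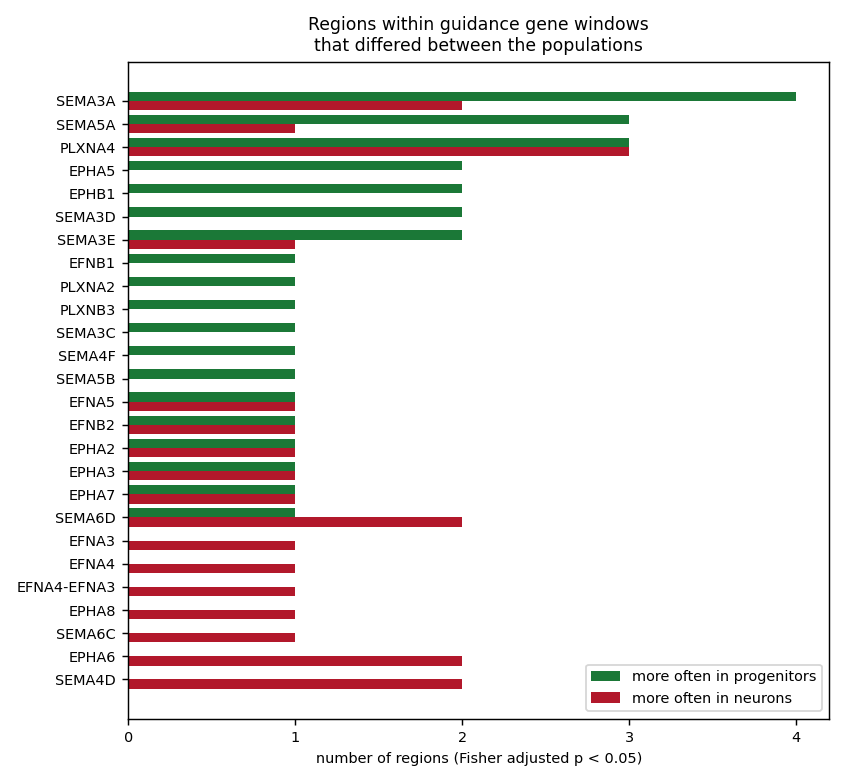
Number of called regions in the window of each of the 26 guidance genes that had any, with a bar for those favouring progenitors above one for those favouring neurons. There are 30 progenitor and 21 neuron regions (1 neuron region counts for EFNA3, EFNA4 and EFNA4-EFNA3 alike), and 10 genes, among them SEMA3A with 4 and 2, hold both.

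Of all 321056 regions, 0.583% had a peak in all 8 progenitor and 0 neuron libraries, and 0.168% the reverse. Among the 1586 in the guidance gene windows, such regions numbered 11 for progenitors and 4 for neurons. The longest of each, 1 per gene, are given in hg38, and all have p = 0.000155 by Fisher's exact test, the smallest that 8 against 8 libraries can give (adjusted p = 0.0118). For the Eph receptors, the progenitor region of EPHA5 was chr4:65398442-65399705, inside the gene, and the neuron region of EPHA8 was chr1:22547995-22548868, outside protein-coding genes and 14.6 kb before the start of EPHA8. The neuron region near EPHA2 was chr1:16103637-16105579, 18.8 kb beyond the 3′ end of the gene. For the ligands, progenitor regions lay inside SEMA3A (chr7:84291698-84292573), SEMA3D (chr7:85232027-85232881) and SEMA3C (chr7:80763832-80764645), and neuron regions inside SEMA6D (chr15:47258132-47259219) and EFNA5 (chr5:107625691-107626484). For the plexins, the progenitor region inside PLXNA4 was chr7:132213751-132214532, and that of PLXNB3 was chrX:153782005-153782998, inside the neighbouring kinase gene SRPK3.

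Opposite regions could lie close together. In EFNA5, the neuron region stood 44.5 kb downstream of the gene's start, and a region with a peak in 7 progenitor and 0 neuron libraries, chr5:107659546-107661640, stood 9.30 kb downstream of it. EFNB2, a transmembrane ephrin, had chr13:106527557-106528350 in 8 progenitor and 1 neuron libraries and chr13:106533390-106534310 in 1 progenitor and 8 neuron libraries, at 7.31 and 1.35 kb inside the gene from its start. EPHA2 had, besides its neuron region, chr1:16114459-16116117 in 8 progenitor and 1 neuron libraries, 8.22 kb beyond its 3′ end. These 3 pairs were chosen after their values had been seen. With a cover of 50% or more of a merged region required, 7 progenitor and 2 neuron regions were called, 4 and 0 of them among the 30 and 21, and of the 10 regions found in all 8 libraries of one population and named above, 9 could be tested and 0 passed (adjusted p of 0.062 to 0.675). With lists of equal length 2 of the 8 regions that could be tested passed, and the adjusted p reached 0.424. With stricter peaks 8 of the 10 passed, and it reached 0.0716.

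Over time, the changes that passed were few and ran upward in progenitors and downward in neurons. Days 90 and 120 were compared with days 40 and 60 within each population in the same limma fit. In progenitors, SEMA3A, SEMA5B and EPHB1 were higher late (3 of 52, 5.77%, against 1.44% of all genes) and 0 were lower (1.46% of all genes). In neurons, PLXNA1, EPHA4 and EPHB3 were lower late (3 of 52, 5.77%, against 2.37% of all genes) and 0 were higher (3.3% of all genes). At an unadjusted p under 0.05, 9 guidance genes were higher and 4 lower late in progenitors (17.3% and 7.69%, against 6.36% and 9.95% of all genes). In neurons 1 was higher and 10 were lower (1.92% and 19.2%, against 11.1% and 7.73%).

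EPHB1, a receptor for B ephrins that turns retinal axons at the midline in mice, was the gene whose change differed between the populations. Progenitor libraries had 20.1 and 20.8 kb per 100 Mb on day 40, 23.7 and 23.2 on day 60, 28.5 and 30.1 on day 90 and 33.3 and 30.7 on day 120. Neuron libraries had 37.0 and 39.8 on day 40, 38.6 and 29.7 on day 60, 26.6 and 31.8 on day 90 and 28.6 and 24.5 on day 120. All 4 late progenitor libraries thus lay above all 4 early ones, while in neurons 1 late library, at 31.8, lay above 1 early library. The late minus early log2 difference was 0.48 ± 0.11 in progenitors (adjusted p = 0.0208) and −0.37 ± 0.11 in neurons (adjusted p = 0.054). The progenitor call was lost without any one of the 6 progenitor libraries of days 40, 60 and 90 (adjusted p of 0.0531 to 0.106), by number of peaks (0.44, adjusted p = 0.0502) and with library weights (0.48, adjusted p = 0.0864).

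The difference between these changes was 0.84 ± 0.16 (adjusted p = 0.0138), where 0.261% of all genes were called in this direction and 0.368% in the other. It did not pass without progenitor day 40 replicate 1 (0.83, adjusted p = 0.0594), neuron day 90 replicate 1 (0.78, adjusted p = 0.0503) or neuron day 120 replicate 2 (0.79, adjusted p = 0.0553), and with lists of equal length it was 0.43 (adjusted p = 0.23). By number of peaks it was 0.80 (adjusted p = 0.062), and with library weights 0.84 (adjusted p = 0.0581). The promoter of EPHB1, printed above, had a peak in all 16 libraries. Inside the EPHB1 gene 2 regions, chr3:134878444-134879330 and chr3:135023816-135024749, had a peak in all 4 late progenitor libraries, in 0 of the 4 early ones and in 6 of 8 neuron libraries. One other region inside the gene, chr3:135076315-135076924, had a peak in all 4 late neuron libraries, in 0 of the 4 early ones and in 0 progenitor libraries.

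SEMA3A, a secreted repellent that acts through neuropilin-1 and A plexins, had 17.4 and 17.5 kb per 100 Mb on day 40, 16.6 and 14.4 on day 60, 26.3 and 25.1 on day 90 and 31.4 and 23.03 on day 120 in progenitors. Every late progenitor library lay above every early one (0.66 ± 0.13, adjusted p = 0.00646). In neurons the values were 25.1 and 17.03, 24.5 and 29.9, 26.4 and 28.4, and 16.9 and 19.4 on the same days, with no call (−0.07 ± 0.13, adjusted p = 0.828). The difference between these changes, 0.74 ± 0.18, did not pass (adjusted p = 0.0634). With lists of equal length the progenitor change was 0.32 (adjusted p = 0.156).

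SEMA5B in progenitors had 9.97 and 11.98 kb per 100 Mb on day 40, 21.5 and 22.1 on day 60, 21.9 and 20.8 on day 90 and 22.2 and 26.2 on day 120. The day 40 libraries stood apart, and those of days 60 and 90 overlapped (late minus early 0.54 ± 0.12, adjusted p = 0.0133). Leaving out progenitor day 40 replicate 1 gave 0.48 (adjusted p = 0.104), and the call was also lost without day 60 replicate 2 (adjusted p = 0.0538) or either replicate of day 90 (adjusted p = 0.082 and 0.0592). Library weights, counting by number of peaks, lists of equal length, flanks of 5 kb and the gene alone each left 0.43 to 0.54, with an adjusted p of 0.054 to 0.0989. In neurons the difference was −0.00 ± 0.12, and the difference between the changes did not pass (0.54 ± 0.17, adjusted p = 0.14).

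Of the genes lower late in neurons, PLXNA1, a receptor for SEMA3A with neuropilin-1 and for SEMA6D, had 7.81 and 9.50 kb per 100 Mb on day 40, 9.16 and 5.86 on day 60, 3.12 and 4.92 on day 90 and 4.87 and 3.86 on day 120. The late libraries all lay below the early ones (−0.82 ± 0.18, adjusted p = 0.00791), though the call was lost without neuron day 60 replicate 1 (−0.69, adjusted p = 0.0517) or day 90 replicate 1 (−0.68, adjusted p = 0.0622). EPHA4 had 23.5 and 22.6, 22.1 and 13.5, 13.7 and 15.01, and 12.01 and 11.6 on the same days. Day 60 replicate 2, one of the shortest lists, lay among the late libraries, and without day 60 replicate 1 the difference of −0.59 ± 0.14 (adjusted p = 0.0113) became −0.42 (adjusted p = 0.0757), while without day 90 replicate 1 it was −0.55 (adjusted p = 0.0556). With lists of equal length it was −0.03 (adjusted p = 0.94) for EPHA4, while for PLXNA1 it was −0.68 (adjusted p = 0.423). With flanks of 5 kb the PLXNA1 difference was −0.46 (adjusted p = 0.202), and for the gene alone −0.46 (adjusted p = 0.277).

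EPHB3 had 9.28 and 12.8 kb per 100 Mb on day 40, 9.88 and 9.24 on day 60, 7.75 and 7.43 on day 90 and 6.34 and 5.92 on day 120 in neurons. Each late library lay below each early one (−0.52 ± 0.14, adjusted p = 0.0241). The call was lost without any one of 6 neuron libraries, namely day 40 replicate 2 (adjusted p = 0.164), day 60 replicate 1 (0.0597) and all 4 of days 90 and 120 (adjusted p of 0.071 to 0.0872). By number of peaks the EPHB3 difference was −0.03 (adjusted p = 0.942), with flanks of 5 kb −0.45 (adjusted p = 0.114) and with lists of equal length −0.81 (adjusted p = 0.0599). In progenitors none of the 3 genes passed, with −0.23 for PLXNA1, −0.04 for EPHA4 and −0.10 for EPHB3. The difference between the changes of the populations passed for none of the 3, with values of 0.59, 0.55 and 0.42 and adjusted p of 0.335, 0.204 and 0.369.

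**Figure D5:**
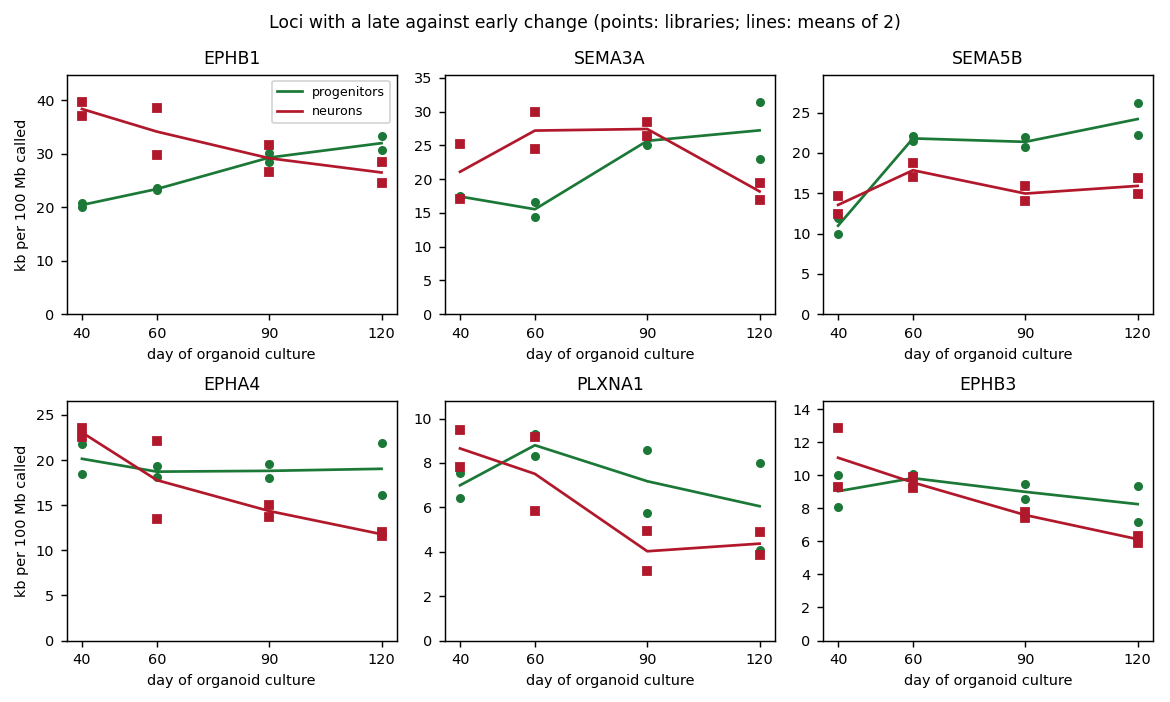
Peak coverage in kb per 100 Mb of the library's peaks by day, from 40 to 120, for the 6 genes called late against early, with 1 point per library (circles for progenitors, squares for neurons) and lines through the means of 2. EPHB1 lies at 20.1 and 20.8 on day 40 and 33.3 and 30.7 on day 120 in progenitors, and at 37.0 and 39.8 on day 40 and 28.6 and 24.5 on day 120 in neurons.

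These changes are relative to the length of each list. Late neuron lists covered 55.7 to 80.3 Mb and early ones 54.8 to 104 Mb. Without scaling the median late minus early log2 difference of all genes was −0.20 in neurons and −0.16 in progenitors, where with scaling it was 0.06 and −0.05. Without scaling, 0 guidance genes were called late against early in either population, where 0.16% of all genes were called in progenitors and 1.56% in neurons, and the differences kept their sign. They were 0.55, 0.43 and 0.37 for SEMA3A, SEMA5B and EPHB1 in progenitors (adjusted p of 0.47 to 0.627). In neurons they were −1.09, −0.85 and −0.78 for PLXNA1, EPHA4 and EPHB3 (adjusted p of 0.123 to 0.155). The EPHB1 difference between the changes was 0.99 (adjusted p = 0.73), where 0 of all genes were called and 4.05% and 2.14% were higher and lower at an unadjusted p under 0.05. Among markers, 2 of the 7 radial glia, 1 of the 8 neuronal and 1 of the 5 mesenchymal genes were higher late in neurons, and 1 neuronal and 1 of the 6 oligodendrocyte lineage genes were lower. In progenitors 1 neuronal gene was higher late and 1 was lower. The part of these cells in the changes of PLXNA1, EPHA4, EPHB3, SEMA3A, SEMA5B and EPHB1 was not tested.

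Few regions switched completely between stages. In progenitors, 10 of 1067 regions with a peak in that population (0.937%, against 0.795% of all such regions) had one in all 4 late and in 0 early libraries, and 4 (0.375%, against 0.737%) in all 4 early and 0 late libraries. In neurons there were 9 late (0.714%, against 1.67%) and 6 early regions (0.476%, against 0.361%) of 1260. SEMA6D held 3 of the late progenitor regions, EFNA5 3 of the early progenitor regions and SEMA5A 3 of the late neuron regions. These counts carry no test.

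Of 34 co-receptors, adaptors and effectors of these receptors, all tested, 3 had more coverage in progenitors and 7 had less (8.82% and 20.6%, against 9.9% and 11.1% of all genes; medians −0.10 for the 34 and −0.05 for all genes). The 3 were MET, a receptor kinase that associates with B plexins (1.15 ± 0.13, adjusted p = 6.9e-07), CHN1, a Rac inhibitor downstream of EPHA4 (0.50 ± 0.10, adjusted p = 0.0006), and NRP2, the SEMA3F co-receptor (0.45 ± 0.08, adjusted p = 0.000354). Lower in progenitors were CRMP1 (−0.73) and DPYSL5 (−0.40), of the collapsin response family that acts after SEMA3A, the adaptor NCK2 (−0.59), GRIP1, which binds B ephrins (−0.52), CHN2 (−0.50), ARHGEF12, which B plexins bind (−0.44), and MICAL3 (−0.31). NRP1, the SEMA3A co-receptor, had 0.22 ± 0.09 (adjusted p = 0.0682).

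Late against early, 0 of the 34 partners passed in progenitors. In neurons, ADAM10, a protease that cleaves A ephrins, and SDCBP, a scaffold that binds B ephrins, were higher late (1.01 and 1.25), and FARP1, which works with A plexins, and NGEF, which acts downstream of EPHA4, were lower (−0.50 and −0.65). Each pair is 5.88% of the 34, against 3.3% of all genes higher and 2.37% lower. For 0 of the 34 did the difference between the changes of the populations pass limma's adjusted threshold.

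Markers of other cell types had peaks in both populations. In progenitors, 2 of 6 GABAergic, 2 of 5 choroid plexus and 1 of 5 mesenchymal markers had more coverage. So had 1 of the 5 microglial markers tested, of 6 listed. In turn, 1 mesenchymal marker had less, and 0 of 6 oligodendrocyte lineage and 0 of 5 endothelial markers passed. Of all genes, 9.9% had more and 11.1% had less. The choroid plexus sum was 11.6 to 21.0 kb per 100 Mb in progenitor libraries and 4.68 to 14.6 in neuron libraries, and the GABAergic sum was 42.0 to 64.4 in progenitor libraries and 34.4 to 59.9 in neuron libraries. No marker was at 0 in every library, and the part of these cells in the differences of the guidance genes was not tested.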

How the data were processed

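ATAC-seq libraries were made by Tn5 treatment of isolated nuclei, per the labels' protocol. The submitters' processing notes name hg38 as the build and MACS2 2.1.2, SAMtools 1.9, Picard, BWA 0.7.17 and Trim Galore 0.5.0 as tools. How duplicates and the Tn5 offset were handled is not given in the sources used here. Each deposited peak carries the −log10 q-value of the authors' peak caller, which was used only to trim or filter lists. Between 95 and 387 peaks per library lay off chromosomes 1 to 22 and X and were left out.

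Overlapping peaks of a library were merged, and covered bases were summed over each RefSeq gene (GRCh38.p14) and 20 kb on either side. The filter kept genes with 500 or more covered bases in 2 or more libraries. They were tested with limma 3.58.1 (trend) in R 4.3.3, on log2(bases + 500) minus log2 of the library's total, with 8 group means and Benjamini-Hochberg adjustment over all genes tested. The pseudocount shrinks the differences of genes with low coverage. Fisher's exact test was run on merged regions seen in 2 to 14 libraries. The steps were tested on simulated data with independent libraries and large planted changes, which checks the code and not the calls given here. The pairing of equal replicate numbers was checked and is given in the closing section.

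All genes of the families may be named. Values per library are given for up to 10 genes a direction between populations and 5 per stage contrast, by size of the difference, and regions by complete separation and length. The members, the partner and marker lists and these rules were chosen with earlier results of these data known.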

Additional observations from a re-analysis of the deposited data

Results flagged for a closer look

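The EPHB1 change from early to late stages differed between the populations, by 0.84 on the log2 scale (progenitors minus neurons), by the test of that difference in limma.

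In 40 sets of 8 libraries (20 genes named in the population or stage comparisons, in each population), the gap of the highest or lowest library to its neighbour, divided by the range, was taken on log2(covered bases + 500) relative to the library's total. It exceeded Dixon's critical value of 0.526 in 3 sets. Chance flags about 1 in 20 sets when all 8 values come from the same normal distribution. Each set here spans 4 days, so that rate need not hold. SEMA3E had a ratio of 0.547 in progenitors, where day 120 replicate 1 was highest at 15.4 kb per 100 Mb (0.735 on the scale of kb per 100 Mb). EPHA6 had a ratio of 0.533 in neurons, where day 40 replicate 2 was lowest at 12.1 kb per 100 Mb, but 0.426 on that linear scale. SEMA3F had a ratio of 0.573 in neurons, where day 40 replicate 1 was lowest at 5.95 kb per 100 Mb, but 0.522 on the linear scale.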

How the results depend on the processing

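Without scaling to the library total, the genes higher in progenitors were 3, those higher in neurons 0, those changed late against early 0 in progenitors and 0 in neurons, and those whose change differed 0. With lists trimmed to equal length, 13 genes were higher in progenitors, 7 were changed late in progenitors (6.03% of all genes) and 2 differed in their change (2.54%), EPHA3 reversed to 0.25 and PLXNA4 to 0.043, and EPHA8 did not pass the filter on low coverage. With peaks of −log10 q of at least 2, late changes numbered 5 in progenitors, 5 in neurons and 3 for the difference (3.2%, 5.48% and 1.03% of all genes). Library weights gave 1 late change in progenitors (0.571%) and 0 for the difference (0 of all genes), and the number of peaks gave 0 for the difference (0.0156%). Without the 2 shortest lists (progenitor day 120 replicate 2 and neuron day 60 replicate 2), there were 10 late changes in progenitors, 5 in neurons and 7 for the difference (7.62%, 11.2% and 8.86% of all genes). Leaving out 1 library at a time gave 5 to 10 genes higher in progenitors and 7 to 10 higher in neurons. Of all genes, 16.4% to 28.9% were then called in either direction. Late changes were 1 to 7 in progenitors (0.555% to 4.88% of all genes), 0 to 7 in neurons (2.38% to 9.02%) and 0 to 2 for the difference (0.0801% to 2.24%). The late progenitor count was 1 without progenitor day 40 replicate 1 (0.742% of all genes), day 60 replicate 2 (0.855%), or either replicate of day 90 (0.555% and 0.838%). It was 7 without day 120 replicate 2 (4.88%). The late neuron count was 7 without either progenitor replicate of day 120 (9.02% and 8.95% of all genes) and 6 without neuron day 40 replicate 1 (5.44%). It was 1 without neuron day 60 replicate 1 (4.15%) and 0 without neuron day 90 replicate 1 (2.43%). The difference count was 0 without progenitor day 40 replicate 1 (0.0801% of all genes), neuron day 90 replicate 1 (0.192%) or neuron day 120 replicate 2 (0.16%). It was 2 without progenitor day 120 replicate 2 (2.24%) or neuron day 40 replicate 2 (0.363%).

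In place of 30 progenitor and 21 neuron regions (3.06% and 1.27% of all regions tested), 7 and 2 were called at a required cover of 50% (0.405% and 0.0878%), 11 and 4 with all regions tested (0.583% and 0.168%) and 18 and 7 without the 2 shortest lists (1.97% and 0.471%). Neuron regions numbered 12 with stricter peaks (1.19% of all) and 4 with lists of equal length (1.57%), 10 and 1 of them among the 21. Leaving out 1 library gave 30 to 42 progenitor regions (3.19% to 4.91% of all) and 21 to 29 neuron regions (1.32% to 2.35%). Where no cause follows from fewer libraries or regions tested, the cause was not tested. Of the 16 genes called between populations, 11 kept the call without any 1 library, while 13 lost it without scaling, 8 with lists of equal length and 6 by number of peaks. Coverage cannot show how strongly a region was open, and with depth unknown, absent peaks in short lists may be missed ones.

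A replicate block gave 7 genes higher in progenitors, 9 higher in neurons, 3 late changes in each population and 1 difference, as without it. Over 28 pairs of groups, the correlation of their differences between replicates was −0.12 to 0.25, with a median of 0.01 and 6 over 0.1. Progenitors and neurons of the same day were not looked at apart from the other pairs. Whether equal replicate numbers mark pairs therefore cannot be told from these values.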
